A study of Mus musculus with 27 samples.

Results

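The growth factor receptor tyrosine kinases described here are 10 genes chosen by name, Fgfr1, Fgfr2, Fgfr3, Egfr, Erbb2, Erbb3, Pdgfra, Pdgfrb, Met and Axl, out of 23295 genes in the table of parental cells and 24247 genes in the table of infected cells. NMuMG, a mouse mammary epithelial cell line, was left untreated or exposed to transforming growth factor-β (TGF-β, 1 to 5 ng/ml), which drives the epithelial-to-mesenchymal transition (EMT), for 8 or 24 h. RNA-seq was made from parental cells (6 libraries), from cells infected with an irrelevant shRNA (control, 6 libraries) and from cells infected with an shRNA against lamin B1 (KD, 6 libraries), and each of these 9 groups had 2 biological replicates. Lamin B1 ChIP-seq on a euchromatin-enriched fraction and ATAC-seq, which maps DNA open to a transposase, were made from parental cells with 1 library per time point each, and Hi-C libraries were not analysed here. All cells, untreated ones included, were grown with insulin and with serum, which carries growth factors. The knockdown was partial, every group comes from a single cell line, and the infected cells carry a vector that the parental cells lack.

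Receptor tyrosine kinases sit in the plasma membrane, bind a secreted growth factor outside the cell and phosphorylate tyrosines inside it, where adaptor proteins dock and feed the RAS-ERK and PI3K routes. FGF receptors bind fibroblast growth factors, the ErbB receptors bind EGF-like ligands and neuregulins, PDGF receptors bind platelet-derived growth factors, MET binds hepatocyte growth factor and AXL binds GAS6. In mammary epithelium, ErbB and FGF signals drive growth and branching, while PDGF receptors are best known from fibroblasts and pericytes. Alternative splicing also decides which ligands an FGF receptor binds, and gene-level values do not show it.

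Levels are given as FPKM, fragment counts scaled to transcript length and to the reads mapped in a library, so that levels can be set side by side between genes. Differences are on the log2(FPKM + 1) scale with the standard error (SE), and a change is called at a Benjamini-Hochberg adjusted p under 0.05 over all genes tested (limma). Adding 1 makes this scale understate changes of genes near or below 1 FPKM. A gene was tested if it reached 1 FPKM in at least 2 libraries of its table, which left 8 of the 10 receptors among 11309 parental genes and 9 among 11450 genes in the infected cells. Pdgfra passed in neither table and Fgfr3 only in the infected cells. Fgfr1, Fgfr2, Erbb3 and Pdgfrb, and Fgfr3 in the infected cells, passed through the groups in which they were high.

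Lmnb1, the target of the knockdown, stood at 29.2 and 36.5 FPKM in the untreated control libraries and at 9.01 and 9.27 FPKM in the untreated KD libraries, and the 2 sets did not overlap at 8 or 24 h either. It also fell with TGF-β in parental cells, from 36.9 and 36.3 FPKM to 19.5 and 17.6 FPKM at 24 h. Replicates correlated with r of 0.96 to 0.99 across genes, and the spread between replicates was largest in the untreated control and 24 h KD groups. Of the 4 epithelial markers, Cdh1, Krt8 and Krt18 were high in all libraries (26.8 FPKM or more), while Epcam ranged from 0.171 to 3.15 FPKM. The leukocyte genes Ptprc and Cd3e and the adipocyte genes Adipoq and Plin1 were at or near 0 throughout (0.0400 FPKM at most), Cd68 ranged from 0.972 to 1.93 FPKM, and the 3 endothelial markers summed to 1.42 FPKM at most. Fabp4 was at 4.61 to 5.87 FPKM in parental cells and at most 0.203 FPKM in infected cells. As these are bulk libraries, fewer cells with a transcript and less transcript per cell cannot be told apart.

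The stretch of 300 bases just upstream of the first consensus coding (CCDS) transcript start is printed for 2 receptors whose RNA and peaks both carry results: Erbb3, which fell through both time points, and Fgfr3, whose start came under the lamin B1 peak of highest score among the receptors at 8 h. Sequences are from the mouse genome, build NCBIM37 (mm9), written 5′ to 3′ on the strand of the gene. Capitals mark GGGCGG, the GC box bound by Sp1, or its reverse complement. The Fgfr3 stretch lies at chr5:34064073-34064372 on the plus strand and the Erbb3 stretch at chr10:128026709-128027008 on the minus strand.
Fgfr3: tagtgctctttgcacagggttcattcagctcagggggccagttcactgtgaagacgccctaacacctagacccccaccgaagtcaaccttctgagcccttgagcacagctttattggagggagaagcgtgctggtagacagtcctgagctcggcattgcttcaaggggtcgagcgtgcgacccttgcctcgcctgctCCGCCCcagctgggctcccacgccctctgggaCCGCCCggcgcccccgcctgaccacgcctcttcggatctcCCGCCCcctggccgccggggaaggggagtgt
Erbb3: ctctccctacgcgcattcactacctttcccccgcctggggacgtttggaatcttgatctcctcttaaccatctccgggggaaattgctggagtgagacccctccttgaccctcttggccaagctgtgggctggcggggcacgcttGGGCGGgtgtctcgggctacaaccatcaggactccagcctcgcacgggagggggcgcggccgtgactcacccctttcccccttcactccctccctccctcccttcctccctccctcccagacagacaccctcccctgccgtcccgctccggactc

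Motif matches are given for the windows of 8 of the 10 receptors, and the choice of these 8 did not depend on what was found. The GC box occurred in 5 of the 8, once in Fgfr2, Egfr and Erbb3, at 2 places in Axl and at 3 places in Fgfr3, against 45.9% of all 18640 windows of the same length. CAGAC, which holds the core of a Smad site, was found in Erbb3, Pdgfra, Pdgfrb and Axl, against 46.6% of windows. The E-box CACCTG, bound by Snail and Zeb factors, was in 0 of the 8 windows, against 19.8% of all. TGANTCA, the AP-1 motif, was in Erbb3 and Pdgfrb (7.0% of windows), and GGAATG, the TEAD motif, in Erbb2 and Axl (13.8%). Both strands were searched, and no motif contains another. The GC content of these 8 windows ran from 51.3% in Pdgfra to 71.7% in Fgfr2, and 6 of the 8 lay above the median of 54.7% over all windows.

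Receptor RNA in untreated parental cells spanned almost the whole range from abundant to barely detected. Axl was highest at 106 and 109 FPKM, followed by Met at 34.3 and 37.2, Erbb2 at 17.8 and 18.03 and Egfr at 9.58 and 10.9 FPKM. Erbb3 at 2.90 and 3.29 FPKM and Fgfr2 at 2.24 and 2.38 FPKM came next, and Fgfr3, Fgfr1, Pdgfrb and Pdgfra were all below 0.7 FPKM. No 2 neighbours in this order overlapped between replicates. After 24 h the order was Axl, Met, Egfr, Erbb2, Fgfr1, Pdgfrb, Fgfr3, Fgfr2, Erbb3 and Pdgfra, and of the neighbours only Fgfr3 and Fgfr2 overlapped.

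FGF receptors moved in opposite directions under TGF-β. Fgfr1, whose main form in mesenchymal cells binds many FGFs, was at 0.634 and 0.614 FPKM in the untreated parental libraries, 1.86 and 1.56 after 8 h and 5.81 and 5.05 after 24 h. No library of a later time reached down to an earlier one, and the rise was called at 8 h (0.74, SE 0.087, adjusted p = 0.000513) and at 24 h (1.98, SE 0.087, adjusted p = 2.52e-06), 8.71-fold between the means at 24 h. Fgfr2, whose epithelial form receives FGFs from the stroma, was at 2.24 and 2.38 FPKM before treatment, 0.492 and 0.775 after 8 h and 0.507 and 0.687 after 24 h. Both treated sets lay below the untreated libraries and overlapped each other, and the fall was called at 8 h (-1.02, SE 0.105, adjusted p = 0.000285) and 24 h (-1.05, SE 0.105, adjusted p = 9.85e-05). Fgfr3, a receptor of cartilage and of many epithelia, stayed under 1 FPKM and was not tested in these cells, with 0.670 and 0.688 FPKM untreated, 0.320 and 0.449 at 8 h and 0.577 and 0.622 at 24 h.

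**Figure D1:**
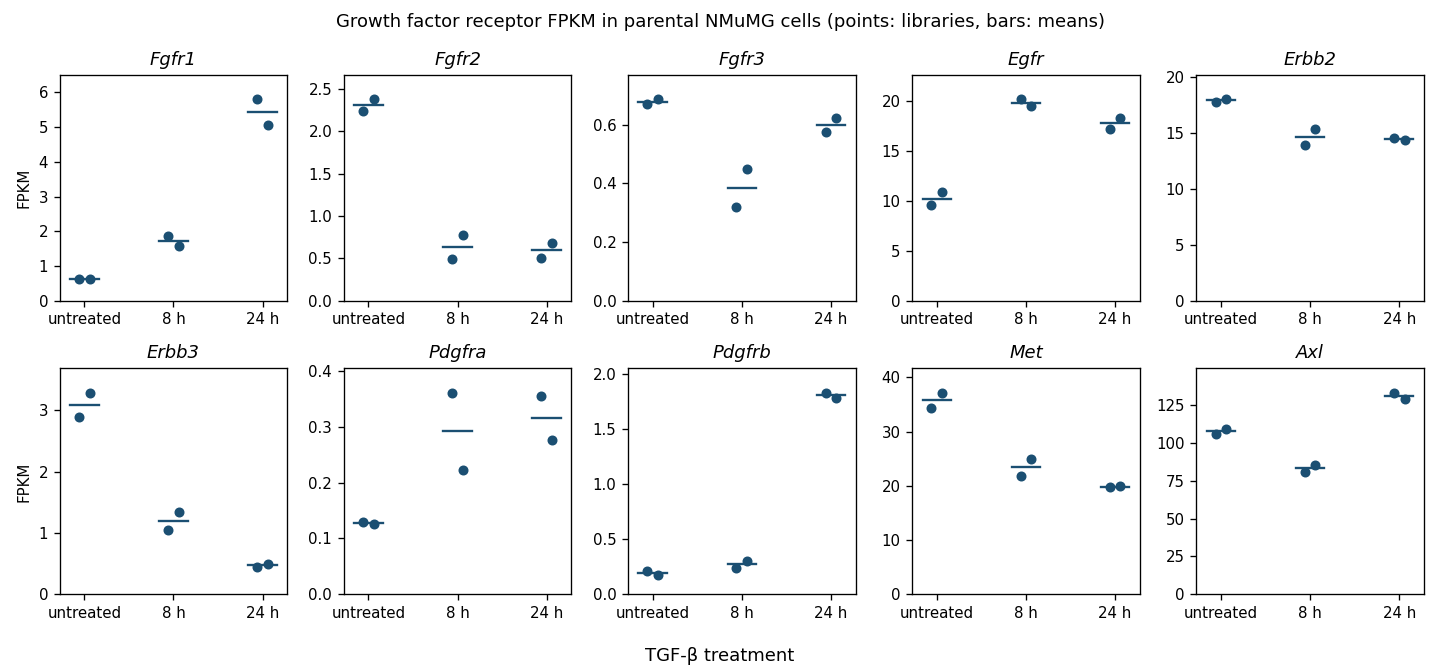
FPKM of the 10 receptors in parental cells before and after 8 or 24 h of TGF-β, 1 panel per gene with its own linear axis from 0. Points are libraries and bars are means of 2. Fgfr1 climbs from 0.634 and 0.614 to 5.81 and 5.05 FPKM and Pdgfrb is high at 24 h, while Fgfr2, Erbb3 and Met lie below their untreated level at both times and Axl dips at 8 h.

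Among the ErbB receptors, Egfr rose while its partners fell. Egfr, the receptor of EGF, TGF-α and amphiregulin, was at 9.58 and 10.9 FPKM untreated, 20.2 and 19.5 after 8 h and 17.2 and 18.4 after 24 h, so that all treated libraries were above the untreated ones. The rise was 0.89 at 8 h (SE 0.067, adjusted p = 8.66e-05) and 0.74 at 24 h (SE 0.067, adjusted p = 5.78e-05). Erbb3, which binds neuregulins but has little kinase activity of its own, dropped from 2.90 and 3.29 FPKM to 1.05 and 1.34 at 8 h and to 0.453 and 0.491 at 24 h.
Its 3 groups did not overlap, and it was called at 8 h (-0.90, SE 0.090, adjusted p = 0.000261) and 24 h (-1.47, SE 0.090, adjusted p = 9.75e-06), where the mean was 6.55-fold lower. Erbb2, which has no known ligand and acts as a partner of the others, changed least, from 17.8 and 18.03 FPKM to 13.9 and 15.3 at 8 h and 14.5 and 14.4 at 24 h. Both falls were called, at -0.28 (SE 0.054, adjusted p = 0.00484) and -0.29 (SE 0.054, adjusted p = 0.00242).

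PDGF receptor RNA was scarce in untreated cells, and Pdgfrb appeared late. Pdgfrb, the receptor of PDGF-B homodimers, was at 0.210 and 0.175 FPKM untreated, 0.238 and 0.306 at 8 h and 1.83 and 1.78 at 24 h. The 24 h libraries stood apart from all others (1.23, SE 0.073, adjusted p = 8.45e-06), 9.35-fold above the untreated mean, whereas the difference at 8 h was not called (0.09, SE 0.073, adjusted p = 0.321). Only the 24 h libraries reached 1 FPKM, so Pdgfrb was tested through the group in which it was high. Pdgfra, which also binds PDGF-A and PDGF-C, remained below 0.4 FPKM and was not tested, with 0.130 and 0.125 FPKM untreated, 0.361 and 0.223 at 8 h and 0.355 and 0.276 at 24 h.

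Met and Axl, the most abundant of the 10, followed different courses. Met, the receptor of hepatocyte growth factor, fell from 34.3 and 37.2 FPKM to 21.9 and 24.9 at 8 h and 19.8 and 19.9 at 24 h, with differences of -0.59 (SE 0.068, adjusted p = 0.000459) and -0.82 (SE 0.068, adjusted p = 4.11e-05). Axl, a receptor of the TAM family, was at 106 and 109 FPKM untreated, 81.0 and 85.4 at 8 h and 133 and 129 at 24 h. Its groups did not overlap, and it was called lower at 8 h (-0.37, SE 0.043, adjusted p = 0.000472) and higher at 24 h (0.28, SE 0.043, adjusted p = 0.000806).

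Of the 8 receptors tested at 8 h, 2 rose, where 22.4% of all genes were called higher, and 5 fell, where 32.1% were called lower. The 24 h counts were 4 risen receptors against a background of 33.4% and 4 fallen ones against 37.1%. These counts include Fgfr1, which passed the filter only through treated libraries, and Fgfr2, which passed only through its untreated libraries. Pdgfrb passed only through 24 h libraries, and Erbb3 through untreated and 8 h ones. The median difference of the 8 receptors was -0.32 at 8 h and -0.0039 at 24 h, against -0.05 and -0.02 over all genes tested. Between 8 and 24 h, Fgfr1 (1.25, SE 0.087, adjusted p = 4.86e-05), Pdgfrb (1.14, SE 0.073, adjusted p = 3.55e-05) and Axl (0.65, SE 0.043, adjusted p = 3.83e-05) rose, against 27.7% of all genes, Axl from the lower level it had reached at 8 h. Erbb3 (-0.58, SE 0.090, adjusted p = 0.00189) and Met (-0.22, SE 0.068, adjusted p = 0.0295) fell further, against 24.0% of all genes. The call of Met between 8 and 24 h was lost when genes of low FPKM were kept (adjusted p = 0.0743) and without replicate 2 at 8 h or either replicate at 24 h (adjusted p of 0.102 to 0.109). These comparisons share libraries with one another.

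Set within their families, the shares of RNA turned over. Fgfr1 made up 17.9% and 16.7% of the summed FPKM of Fgfr1, Fgfr2 and Fgfr3 in the untreated parental libraries, 69.6% and 56.0% at 8 h and 84.3% and 79.4% at 24 h. In control cells it rose from 4.94% and 9.20% to 73.5% and 73.1% at 8 h and 90.1% and 92.0% at 24 h. KD cells showed 6.62% and 7.23% untreated, 67.2% and 61.9% at 8 h and 85.0% and 83.9% at 24 h.
In all 3 sets of cells the treated libraries had a higher Fgfr1 share than the untreated ones, and at both treated times the KD libraries lay below the control libraries. Egfr made up 31.6% and 33.8% of the summed FPKM of Egfr, Erbb2 and Erbb3 in untreated parental cells and 57.4% and 53.9% at 8 h. It was higher in KD than in control cells at each time, with 41.8% and 43.8% against 50.2% and 51.9% untreated, 68.3% and 68.7% against 74.7% and 73.8% at 8 h, and 60.4% and 60.4% against 65.7% and 62.7% at 24 h. These shares are derived from the levels given above and below and were not tested.

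**Figure D2:**
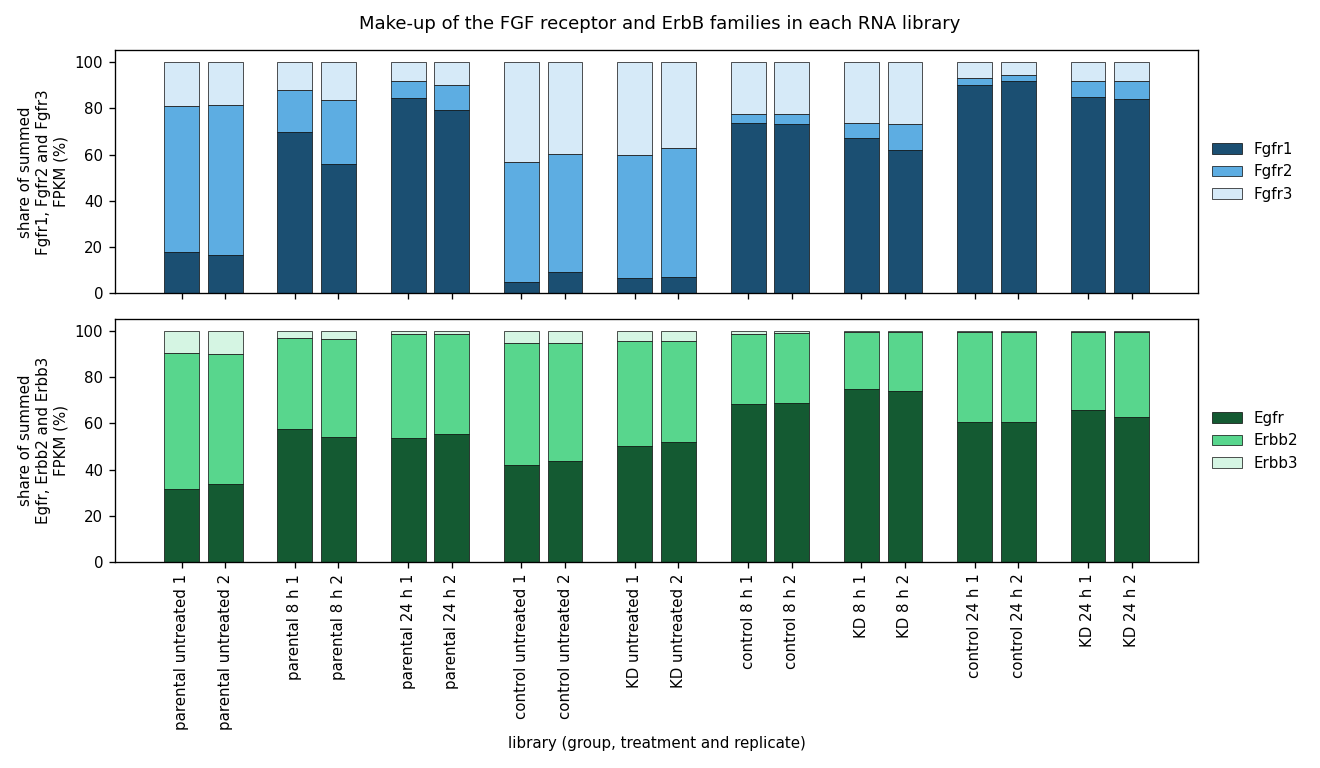
Share of each receptor in the summed FPKM of its family (percent), for the FGF receptors (top) and the ErbB receptors (bottom), with 1 bar per RNA library. The Fgfr1 share goes from 17.9% and 16.7% in untreated parental cells to 84.3% and 79.4% at 24 h, and the Egfr share is above that of Erbb2 at 8 h in parental, control and KD cells.

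In control cells Fgfr1 rose with TGF-β, while Fgfr2 and Fgfr3 fell. Fgfr1 went from 0.468 and 0.467 FPKM to 2.21 and 2.03 at 8 h and 9.13 and 9.30 at 24 h, a rise of 1.09 (SE 0.082, adjusted p = 6.19e-06) and then 2.80 (SE 0.082, adjusted p = 1.38e-08), 19.7-fold at 24 h. Fgfr2 was at 4.90 and 2.60 FPKM untreated, 0.125 and 0.119 at 8 h and 0.301 and 0.263 at 24 h, called lower by -2.04 (SE 0.186, adjusted p = 1.95e-05) and -1.85 (SE 0.186, adjusted p = 2.23e-05). Fgfr3 was at 4.11 and 2.005 FPKM untreated, 0.670 and 0.629 at 8 h and 0.701 and 0.544 at 24 h, called lower by -1.25 (SE 0.197, adjusted p = 0.000545) and -1.27 (SE 0.197, adjusted p = 0.000361).
For both Fgfr2 and Fgfr3 the first untreated control library was far above the second, and both were above all treated libraries. In KD cells the 24 h values were 4.37 and 5.46 FPKM for Fgfr1 (2.21, SE 0.082, adjusted p = 4.24e-08), 0.347 and 0.519 for Fgfr2 (-1.14, SE 0.186, adjusted p = 0.0005) and 0.427 and 0.530 for Fgfr3 (-0.77, SE 0.197, adjusted p = 0.00681).

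The other receptors responded in control cells as follows. Egfr went from 12.02 and 11.9 FPKM to 25.5 and 24.9 at 8 h (1.01, SE 0.046, adjusted p = 3.05e-07) and 19.3 and 19.6 at 24 h (0.66, SE 0.046, adjusted p = 2.15e-06), with no overlap between the 3 times. Erbb3 dropped from 1.47 and 1.44 FPKM to 0.460 and 0.429 (-0.76, SE 0.057, adjusted p = 5.94e-06) and 0.178 and 0.172 (-1.06, SE 0.057, adjusted p = 4.09e-07). Met dropped from 27.8 and 29.0 FPKM to 18.8 and 18.5 (-0.58, SE 0.043, adjusted p = 5.93e-06) and 14.97 and 15.2 (-0.87, SE 0.043, adjusted p = 2.64e-07).
Both genes were lower at each later time in every library. Pdgfrb was nearly absent untreated (0.00624 and 0.00600 FPKM), reached 0.0892 and 0.0611 at 8 h and 1.04 and 1.21 at 24 h, and was called at 24 h (1.08, SE 0.092, adjusted p = 7.73e-06), not at 8 h (0.10, SE 0.092, adjusted p = 0.388). With 0.1 in place of 1 added before the logarithm the 8 h rise of Pdgfrb was called too, at 0.72 in control (adjusted p = 0.0278) and 0.80 in KD cells (adjusted p = 0.0162).
Axl went from 129 and 128 FPKM to 71.4 and 72.7 at 8 h (-0.83, SE 0.066, adjusted p = 8.58e-06) and back to 118 and 119 at 24 h, where it was not called (-0.12, SE 0.066, adjusted p = 0.141), though it was called with only the groups compared in the fit (adjusted p = 0.0371). The median over all genes stood at -0.14 at 8 h and -0.13 at 24 h in control cells, so the 24 h value of Axl was near that of the middle gene. Erbb2 fell from 15.3 and 13.9 FPKM to 11.4 and 10.9 (-0.36, SE 0.053, adjusted p = 0.000369) and 12.5 and 12.7 (-0.20, SE 0.053, adjusted p = 0.00867), and the latter call was lost after quantile normalization (-0.07, adjusted p = 0.254) and without replicate 1 at 24 h (adjusted p = 0.0503).

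Counted over the control cells, 2 of the 9 receptors tested rose at 8 h (19.4% of all genes did) and 6 fell (44.9%). By 24 h, 3 had risen (25.5%) and 5 had fallen (45.1%). Here Fgfr1 passed the filter only through treated libraries, Fgfr2, Fgfr3 and Erbb3 only through untreated ones, and Pdgfrb only through those at 24 h. The KD cells had 2 that rose at 8 h (23.0%) and 6 that fell (44.8%), then 3 that rose by 24 h (28.6%) and 6 that fell (43.3%). The receptors that fell by 24 h in KD cells included Axl (-0.26, SE 0.066, adjusted p = 0.00564), a call that was lost when only the 2 groups compared were fitted (adjusted p = 0.0647). Erbb2 in KD cells at 24 h (-0.22, SE 0.053, adjusted p = 0.00464) was lost after quantile normalization (adjusted p = 0.0554), and Fgfr3 in KD cells at 8 h (-0.74, SE 0.197, adjusted p = 0.00888) without the first untreated KD library (adjusted p = 0.0515).

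Lamin B1 knockdown went with less Fgfr1 and Axl and more Egfr. Fgfr1 was at 0.268 and 0.275 FPKM in untreated KD cells, 1.25 and 1.20 at 8 h and 4.37 and 5.46 at 24 h, below both control libraries at each time. The difference from control was called at 8 h (-0.49, SE 0.082, adjusted p = 0.00258) and 24 h (-0.79, SE 0.082, adjusted p = 0.000473) but not in untreated cells (-0.21, SE 0.082, adjusted p = 0.112), where adding 0.1 in place of 1 brought it past the threshold (-0.61, adjusted p = 0.00794). On the linear scale the KD mean of Fgfr1 was 0.581 of the control mean untreated, 0.577 at 8 h and 0.534 at 24 h.
Axl was at 114 and 113 FPKM in untreated KD cells, 50.9 and 48.3 at 8 h and 86.8 and 102 at 24 h, again below both control libraries each time. It was called at 8 h (-0.53, SE 0.066, adjusted p = 0.000612) and 24 h (-0.33, SE 0.066, adjusted p = 0.0081), but not untreated (-0.18, SE 0.066, adjusted p = 0.0925). The 24 h call was lost with only the 2 groups fitted (adjusted p = 0.109) and without the first or second control library at 24 h (adjusted p = 0.0504 and 0.0530).

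Egfr was higher in KD cells, at 15.4 and 16.2 FPKM untreated (0.37, SE 0.046, adjusted p = 0.00127) and 31.5 and 30.4 at 8 h (0.29, SE 0.046, adjusted p = 0.00215). At 24 h it was at 22.0 and 20.6 FPKM, still above both control libraries but not called (0.13, SE 0.046, adjusted p = 0.0727), and called without KD replicate 2 (0.17, adjusted p = 0.0304). Erbb3 was at 1.39 and 1.33 FPKM untreated, 0.231 and 0.281 at 8 h and 0.127 and 0.190 at 24 h in KD cells. It was called lower at 8 h (-0.20, SE 0.057, adjusted p = 0.0243), and this call was lost without any of the 4 libraries compared (adjusted p of 0.0626 to 0.136).

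Met and Erbb2 were not called between KD and control at any time. Met in KD cells stood at 27.7 and 27.1 FPKM untreated, 19.6 and 19.0 at 8 h and 14.4 and 13.5 at 24 h, and its difference from control was -0.05 (95% interval -0.15 to 0.05), 0.05 (-0.05 to 0.15) and -0.11 (-0.21 to -0.0084). At 24 h, Met was called after quantile normalization (-0.14, adjusted p = 0.0356) and without KD replicate 1 (-0.15, adjusted p = 0.0327). Erbb2 in KD cells stood at 13.9 and 13.7 FPKM untreated, 10.5 and 10.5 at 8 h and 11.4 and 12.04 at 24 h, with differences of -0.07 (95% interval -0.19 to 0.05), -0.08 (-0.20 to 0.04) and -0.10 (-0.22 to 0.02).
Pdgfrb was listed at 0 in both untreated KD libraries, and at 1.06 and 1.53 FPKM at 24 h it overlapped the control libraries (0.11, SE 0.092, adjusted p = 0.414). Without KD replicate 1 at 24 h, which leaves only the higher library, Pdgfrb was called (0.25, adjusted p = 0.0255).

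Fgfr2 and Fgfr3 were lower in untreated KD cells, at 2.16 and 2.12 FPKM and at 1.62 and 1.41 FPKM, than in both untreated control libraries, but neither was called (-0.55, SE 0.186, adjusted p = 0.0695, and -0.64, SE 0.197, adjusted p = 0.0523). Both were called after quantile normalization (adjusted p = 0.0383 and 0.0327). Without the second untreated control library, which leaves only the higher one, the differences were -0.91 and -1.02. At 8 and 24 h their differences were between -0.14 and 0.16. Pdgfra, not tested, was higher in both KD libraries than in both control libraries at each time, with 0.0958 and 0.103 against 0.0793 and 0.0466 FPKM untreated, 0.683 and 0.668 against 0.413 and 0.382 at 8 h, and 0.360 and 0.391 against 0.225 and 0.271 at 24 h.

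**Figure D3:**
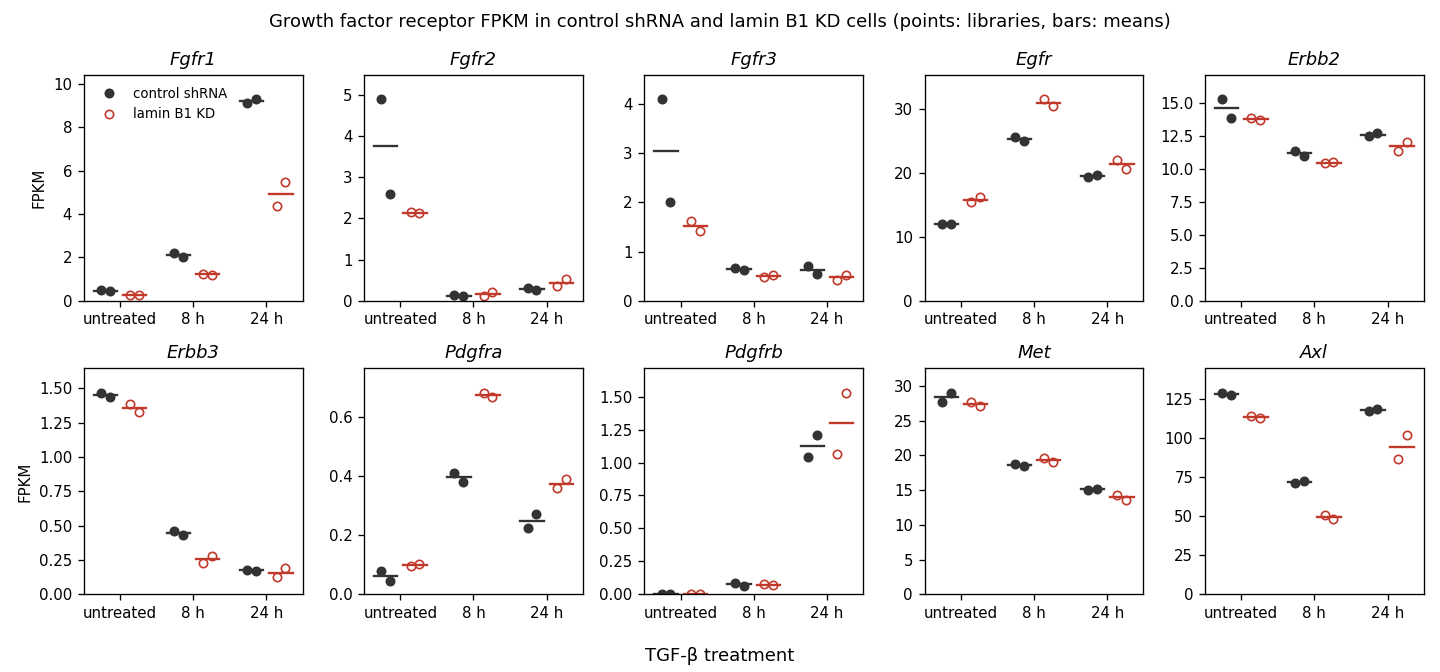
FPKM of the 10 receptors in control (filled) and lamin B1 KD (open) cells before and after 8 or 24 h of TGF-β, 1 panel per gene with its own linear axis from 0. Points are libraries and bars are means of 2. KD points of Fgfr1 and Axl lie below the control points at each time and those of Egfr above, while the untreated control points of Fgfr2 lie far apart at 4.90 and 2.60 FPKM.

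Between KD and control, 1 of 9 receptors was called higher and 0 lower in untreated cells, against 10.6% and 9.09% of all genes so called (limma). Of the 9, 5 had an unadjusted p under 0.05. The 8 h comparison had 1 receptor called higher (19.3% of all genes) and 3 called lower (16.5%). The 24 h comparison had 0 called higher by limma (16.8% of all genes) and 2 called lower (11.5%), with 4 of either sign at an unadjusted p under 0.05. Cdh1, the epithelial cadherin, was also higher in KD cells after TGF-β, at 83.1 and 84.1 against 51.6 and 52.1 FPKM at 8 h and 46.6 and 60.1 against 26.8 and 27.6 FPKM at 24 h, and its part in the receptor differences was not tested. The summed level of the 4 epithelial markers was 5641 and 5862 FPKM in KD against 6250 and 6525 FPKM in control cells at 8 h, and 6107 and 6947 against 5750 and 5994 FPKM at 24 h. This sum mostly follows Krt8 and Krt18, which were at 1894 FPKM or more in infected cells. Cdh1 was at 127 FPKM at most and Epcam at 3.15 FPKM at most, so the sum does not show the Cdh1 difference.

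Whether the response to TGF-β itself differed between KD and control cells was tested as the difference of the differences. At 8 h 0 receptors were called in either direction by limma, with 3 at an unadjusted p under 0.05, against 2.45% of all genes called higher and 1.61% lower. Nearest to the threshold was Axl (-0.35, SE 0.093, adjusted p = 0.0753), which was called when only the groups compared were fitted (adjusted p = 0.0224). At 24 h Fgfr1 alone was called, with a response smaller by -0.59 in KD cells (SE 0.116, adjusted p = 0.0326), against 2.73% of all genes higher and 1.98% lower.
On the linear scale the Fgfr1 means rose 19.7-fold in control and 18.1-fold in KD cells between 0 and 24 h. With 0.1 added in place of 1 the difference in response was -0.29 and not called (adjusted p = 0.307). The call was also lost when only the groups compared were fitted (adjusted p = 0.124), and without the first untreated control library, either untreated KD library or either 24 h control library (adjusted p of 0.0593 to 0.127).
Egfr at 24 h (-0.25, SE 0.065, adjusted p = 0.0701) and Fgfr2 at 24 h (0.71, SE 0.263, adjusted p = 0.151) were not called. Leaving out the second untreated control library keeps only the one with the higher Fgfr2 and Fgfr3 values. The falls of Fgfr2 and Fgfr3 were then smaller in KD cells by 0.97 and 0.89 at 8 h. At 24 h they were smaller by 1.07 and 0.89. Without KD replicate 1 at 24 h Egfr was called (-0.29, adjusted p = 0.0124), and without KD replicate 2 Axl was called (-0.26, adjusted p = 0.0285).

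**Figure D4:**
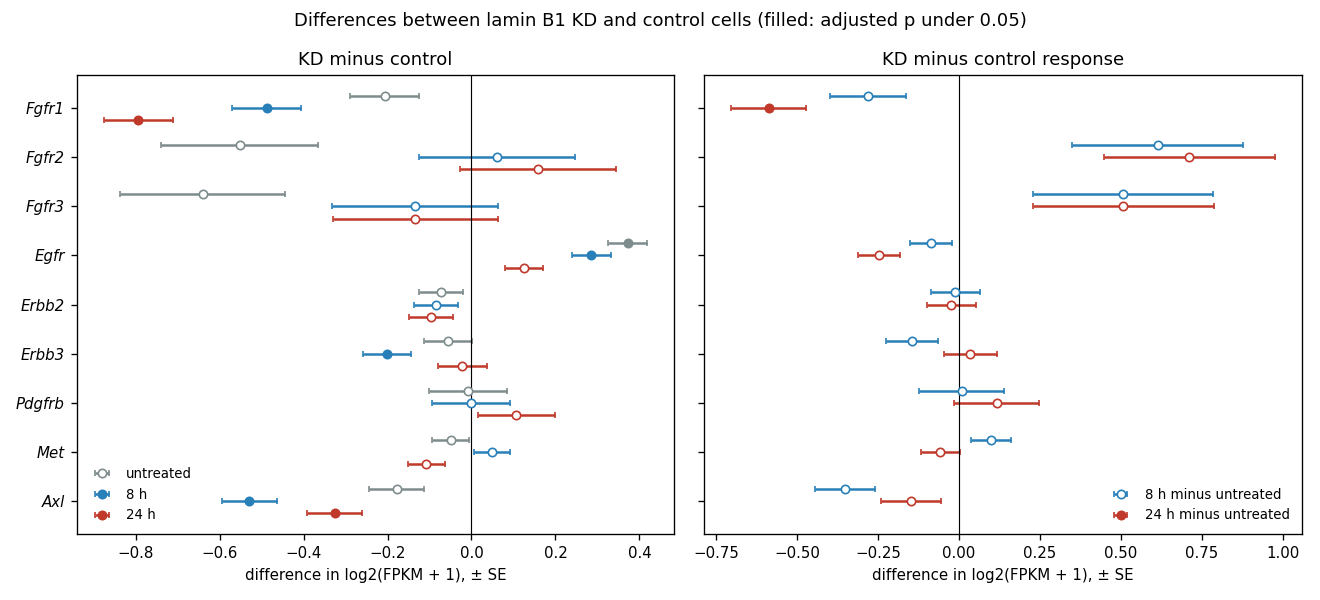
Differences in log2(FPKM + 1) between lamin B1 KD and control cells at each time (left) and between their responses to TGF-β (right) for the 9 receptors tested. Points are fitted differences, bars are ± 1 SE and filled points have an adjusted p under 0.05. Fgfr1 at 24 h stands at -0.79 on the left and at -0.59 on the right, and Egfr is the only receptor with filled points above 0 on the left.

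Genes around the receptors were taken from lists of their pathway. Of 14 ligand genes tested in parental cells at 24 h, 6 rose and 7 fell, where 33.4% of all genes were called higher and 37.1% lower, with a median of -0.46 against -0.02 over all genes. These 14 include Fgf18, which passed the filter only through 24 h libraries, and Fgfbp1, which passed only through untreated ones. PDGF ligand genes were among those that rose, Pdgfa from 17.0 and 17.5 to 82.4 and 78.6 FPKM (2.16, SE 0.078, adjusted p = 1.25e-06) and Pdgfb from 16.8 and 15.3 to 81.9 and 70.3 FPKM (2.18, SE 0.149, adjusted p = 1.62e-05). Among those that fell were Fgf1, a ligand of all FGF receptors, from 14.9 and 15.7 to 1.77 and 1.89 FPKM (-2.52, SE 0.071, adjusted p = 6.18e-07), and the EGFR ligand genes Areg (-1.54, SE 0.048, adjusted p = 8.39e-07) and Ereg (-1.50, SE 0.068, adjusted p = 2.92e-06).
Nrg1, a ligand of ERBB3, had fallen at 8 h from 15.02 and 14.5 to 3.78 and 5.09 FPKM (-1.55, SE 0.119, adjusted p = 9.93e-05). In control cells at 24 h, 8 of 15 ligand genes rose and 7 fell (25.5% and 45.1% of all genes). Among those with a group mean of 5 FPKM or more, Pdgfa (2.78), Pdgfb (2.004) and Hbegf (1.04) rose most and Fgf1 (-2.15), Ereg (-1.60) and Btc (-1.41) fell most.

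Of 11 other receptor tyrosine kinases tested in parental cells at 24 h, 9 rose and 1 fell, against 33.4% and 37.1% of all genes, with a median of 0.64 against -0.02. Ret and Mst1r, of these 11, were under 1 FPKM untreated and passed the filter only through treated libraries, in which they were higher. Fgfrl1, an FGF receptor relative without a kinase domain, went from 3.02 and 2.65 to 7.91 and 8.11 FPKM (1.23, SE 0.069, adjusted p = 6.55e-06), and the collagen receptor Ddr1 from 28.9 and 28.5 to 52.8 and 51.5 FPKM (0.84, SE 0.040, adjusted p = 3.34e-06). Flt1, a VEGF receptor, was the 1 that fell, from 12.8 and 15.6 to 5.02 and 5.42 FPKM (-1.29, SE 0.096, adjusted p = 2.44e-05). In control cells 7 of 12 rose and 3 fell, against 25.5% and 45.1% of all genes, with a median of 0.25 against -0.13 over all genes.

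Downstream of the receptors, 11 of 20 adaptor and effector genes rose and 5 fell in parental cells at 24 h, when 33.4% of all genes were called higher and 37.1% lower. They included the docking protein gene Gab2, from 2.34 and 2.59 to 9.25 and 8.96 FPKM (1.55, SE 0.069, adjusted p = 2.78e-06). Of 17 negative regulators 8 rose and 7 fell. Spred2, which restrains RAS-ERK signalling, rose (0.99, SE 0.074, adjusted p = 2.52e-05), while Dusp6, an ERK phosphatase gene that is itself induced by ERK, fell from 13.6 and 15.2 to 4.25 and 3.76 FPKM (-1.62, SE 0.130, adjusted p = 3.34e-05). Dusp5, of the same list, went the other way, from 3.35 and 3.47 to 7.40 and 5.76 FPKM (0.77, SE 0.114, adjusted p = 0.000738). Control cells at 24 h likewise had more Dusp5 (1.72) and Dusp4 (1.02) and less Dusp6 (-0.74). Of 9 transcripts known as ERK targets, 1 rose and 7 fell, among them Fosl1 (-1.16, SE 0.113, adjusted p = 8.87e-05) and Ccnd1 (-1.07, SE 0.056, adjusted p = 5.01e-06), with a median of -0.57 against -0.02 over all genes.
In control cells 4 of the 9 ERK targets rose and 3 fell at 24 h, against 25.5% and 45.1% of all genes. Their median was 0.16, against -0.13 over all genes. Of 5 genes of sheddases, proteases that cut proteins off the cell surface, 3 rose and 2 fell in parental cells. Adam12 rose from 1.63 and 1.70 to 28.8 and 27.6 FPKM (3.45, SE 0.062, adjusted p = 1.85e-07). Of the 3 splice regulators of FGF receptors that were tested, Rbfox2 rose (0.99, SE 0.056, adjusted p = 6.93e-06), and Esrp2 (-0.60, SE 0.059, adjusted p = 9.1e-05) and Ptbp1 (-0.25, SE 0.035, adjusted p = 0.000616) fell.

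In KD against control cells, Errfi1, a feedback inhibitor of EGFR, was lower at all times, with 13.1 and 13.7 against 19.8 and 21.3 FPKM untreated (-0.58, SE 0.110, adjusted p = 0.00866), 7.76 and 7.31 against 18.2 and 17.4 at 8 h (-1.14, SE 0.110, adjusted p = 0.0002) and 7.80 and 10.7 against 17.5 and 17.7 at 24 h (-0.88, SE 0.110, adjusted p = 0.00106). Fgf1 was higher untreated (0.83, SE 0.103, adjusted p = 0.00124) and at 8 h (1.24, SE 0.103, adjusted p = 0.000103), and so was Hbegf, an EGFR ligand gene (0.59 and 0.29, adjusted p = 0.000253 and 0.00389). At 24 h Fgf1 was again higher, at 2.95 and 3.72 against 1.54 and 1.503 FPKM (0.78, SE 0.103, adjusted p = 0.00129), and Hbegf was not called (-0.04, SE 0.053, adjusted p = 0.628). Pdgfa was lower at each time (-0.46, -0.45 and -0.29, adjusted p of 7.7e-05 to 0.000845), as was Nras (-0.60, -0.45 and -0.43, adjusted p of 4.25e-05 to 0.000191).
Over all genes, 10.6%, 19.3% and 16.8% were called higher in KD cells untreated, at 8 h and at 24 h, and 9.09%, 16.5% and 11.5% lower. By list, 5 of 15 ligand genes were called untreated, 7 at 8 h and 6 at 24 h, of which 2, 5 and 4 were higher, and the adaptors and effectors had 4, 7 and 7 of 21 called, of which 3, 6 and 6 were lower. Of 17 negative regulators 6 were called untreated (4 higher, 2 lower), 2 at 8 h and 5 at 24 h, all lower at both treated times. Of the 9 ERK targets 4 were called untreated, all higher, 3 at 8 h and 4 at 24 h, of which 2 and 3 were lower. Other receptor tyrosine kinases were called in 1, 3 and 2 of 12 cases. Sheddases were called in 2, 5 and 1 of 5 cases and splice regulators in 1, 3 and 1 of 3.

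Across the 18 RNA libraries, with each table centred on its own mean, the gene most like Fgfr1 was Relt (Pearson r = 0.993 over 9137 genes compared), followed by Wtip and Fermt2 (0.986 and 0.985). Erbb3 was most like Llgl2 (0.985), a regulator of epithelial polarity, Met most like Man1a (0.983), Fgfr2 most like Mt2 (0.984) and Pdgfrb most like Klhl30 (0.993). Egfr was nearest to Arhgef5 (0.976), Axl to Man2a2 (0.976) and Erbb2 to Flot2 (0.968). The libraries share the 3 time points, and many genes follow them, so these values describe likeness only.

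Lamin B1 and ATAC peaks were looked up at the receptor genes. A lamin B1 peak was counted from 2500 bp upstream of the start to the 3′ end of the gene, and an ATAC peak within 500 bp of the start. Fgfr2 needed care, since the longest annotated Fgfr2 transcript stretches its gene model to 3009.1 kb with 31 other coding genes inside, while its CCDS transcripts cover 102.6 kb (chr7:137307223-137409777, minus strand). Counts over CCDS transcripts, a choice made after the values were seen, are therefore given beside those over whole gene models. With 1 library per time point, differences in peaks between times have no replicate check.

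Over CCDS transcripts, lamin B1 peaks were at 3 of the 10 receptors in untreated cells (20.6% of all genes), 6 after 8 h (40.2%) and 5 after 24 h (30.4%). Whole gene models gave 4 (19.9%), 6 (38.9%) and 6 (29.5%), the untreated count including Fgfr2 through a peak outside its CCDS transcripts. The peak lists themselves held 4645, 10484 and 7083 peaks, and the part of list length in these counts was not tested. When each list was cut to its 4645 highest peaks, whole gene models gave 4, 4 and 3 receptors.

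At 8 h a lamin B1 peak lay over the start of 5 receptors. The highest score, the value that the peak caller MACS writes for each peak, was 196.3 at Fgfr3 (chr5:34063914-34066173), above 94.2% of the 8 h peaks. Erbb2 had a peak of score 120.11 (chr11:98273319-98274325) and Fgfr2 one of 112.52 (chr7:137408912-137410143). Met followed at 83.09 (chr6:17413174-17414351), near the list's median of 79.42, and Erbb3 at 50.18 (chr10:128026258-128026760), at the bottom of the list. Erbb3 had a second 8 h peak upstream, at -1115 to -171 bp from the start (chr10:128026879-128027823), of score 72.54, above 41.3% of the list.
The 8 h peak over the start of Fgfr3 spans the printed stretch whole, and those of Erbb3 overlap its stretch at either end. Pdgfra had peaks inside the gene at all 3 times, 3431 to 4554 bp past its first start untreated, where a second CCDS transcript begins. Erbb2 was the only receptor with a peak over its start in untreated cells (score 64.27), and by 24 h its only peak lay in an intron, 4409 to 5551 bp in. At 24 h Fgfr2 (107.25), Fgfr3 (97.38) and Met (77.80) still had a peak over the start. Axl had a peak in untreated cells only, in an intron 6513 to 7545 bp past the start.

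Fgfr1, Egfr and Pdgfrb had no lamin B1 peak in the CCDS locus at any time. Their nearest peaks were 82.47, 77.92 and 3.11 kb from the Fgfr1 start at 0, 8 and 24 h, 406.56 to 406.76 kb from the Egfr start, and 165.75, 131.32 and 30.57 kb from the Pdgfrb start. The 24 h peak near Fgfr1 lies upstream of the CCDS start but inside the longer gene model, within 2500 bp of its start. Of the 5 receptors called lower in parental cells at 8 h, 4 had a lamin B1 peak at 8 h (Fgfr2, Erbb2, Erbb3 and Met), and of the 2 called higher, 0 had. Among all genes called lower at 8 h, 53.9% had a peak by the same CCDS rule, and among those called higher, 60.7%. At 24 h, 3 of the 4 lower and 0 of the 4 higher receptors had a peak, against 42.1% and 46.0% of all genes so called. Over whole gene models Fgfr1 counts as well, which made it 1 of the 4 higher receptors. These are counts over few genes and were not tested.

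ATAC peaks within 500 bp of a CCDS start were found at 3 receptors untreated (Egfr, Erbb2 and Erbb3, 32.9% of all genes), 2 at 8 h (Erbb3 and Met, 26.9%) and 8 at 24 h (all but Pdgfra and Pdgfrb, 50.5%). Whole gene models gave 4 (30.6%), 3 (25.0%) and 7 (47.1%), each count including a peak at the distant start of the long Fgfr2 model. The 24 h list was by far the longest, with 33811 peaks against 9782 and 10340. With lists cut to 9782 peaks the whole-model counts were 4, 3 and 3, each again including Fgfr2.

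Erbb3 kept an ATAC peak over its start at all times, with scores of 117.55, 72.81 and 288.26, while its RNA fell. Egfr, whose RNA rose at 8 h, had a peak over the start untreated (67.58) and at 24 h (205.79) and none at 8 h, when the nearest lay 34.96 kb away. At 24 h Egfr and Met each had 8 peaks along the gene, the highest at 264.07 in an Egfr intron and at 383.13 over the Met start (chr6:17413153-17414905).
Fgfr1 gained its only peak at 24 h, over the CCDS start (chr8:26628870-26629524, score 57.98), above 6.9% of the peaks of that list. Axl had a peak in an intron about 6 kb past the start at all 3 times (112.47, 57.50 and 247.05) and 1 over its start at 24 h (79.48). Pdgfrb (chr18:61204804-61244715, plus strand) had a single peak, at 24 h in an intron 10007 to 11060 bp past the start. Scores grow with the depth of a library, which the lists do not give, so they rank peaks within a list and not between times.

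**Figure D5:**
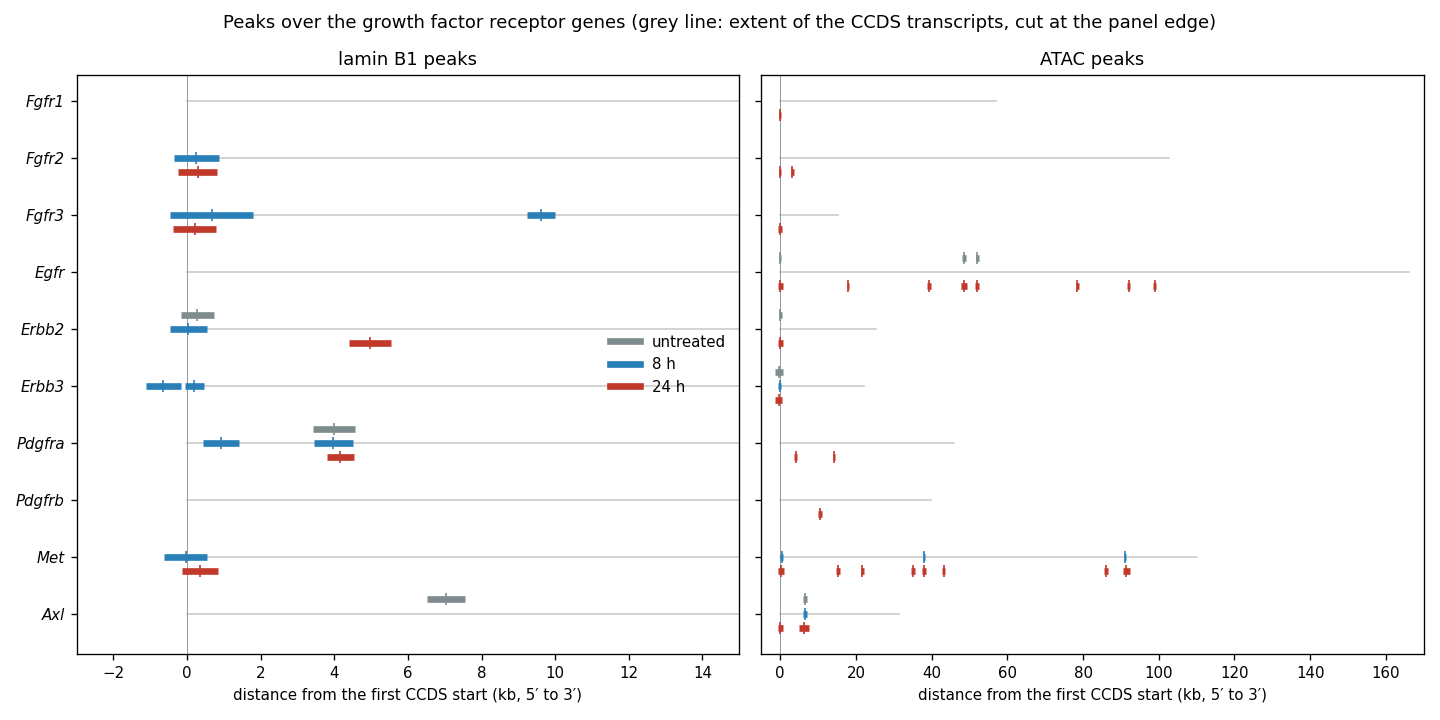
Lamin B1 peaks (left) and ATAC peaks (right) along the 10 receptor genes, as distance from the first CCDS start in kb, with grey for untreated, blue for 8 h and red for 24 h. Bars are peak widths, short upright marks their centres and grey lines the extent of the CCDS transcripts, cut at the panel edge. Lamin B1 bars cross the start of Fgfr2, Fgfr3, Erbb2, Erbb3 and Met at 8 h, Fgfr1, Egfr and Pdgfrb have none in the CCDS locus, and most ATAC marks are from 24 h.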

How the data were processed

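RNA-seq of 18 libraries, lamin B1 ChIP-seq of 3 and ATAC-seq of 3 were used, grouped by the sample titles. The authors deposited FPKM values per gene, 1 table for parental and 1 for infected cells, and the score of each MACS peak called per library on mm9. The submitters' processing notes name Bowtie, TopHat and Cufflinks, with versions and annotation not given in the sources used here. The tables have no header line, so libraries were assigned from the order written in the table titles, and 0 columns were left unused. Depth is unknown, so no counting intervals are given.

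Each table was fitted separately, all groups together, with limma 3.58.1 (R 4.3.3, trended eBayes) on log2(FPKM + 1), over genes at 1 FPKM or more in at least 2 libraries. P-values were Benjamini-Hochberg adjusted over all genes tested. The labels do not say that replicates are separate cultures, though the methods call them biological replicates, and p-values measure only the spread between them. Peaks were placed on mm9 gene models, found by symbol for 21177 of 23295 genes (18640 with CCDS transcripts). Receptor sequences came from the same build. Some upstream sequences, with their motif matches, are not reported here.

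All 10 receptors were named. From 7 pathway lists, up to 3 called genes per list and direction with the largest change, no overlap between groups and a group mean of 5 FPKM or more were eligible to be named. Receptors and lists were chosen with earlier results of these data known. Alternatives were another constant, no filter, quantile normalization, only the groups compared, a replicate block, each replicate left out, a minimum change, and other peak rules.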

Additional observations from a re-analysis of the deposited data

Results flagged for a closer look

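Fgfr1 at 24 h was singled out because the difference between the KD and control responses to TGF-β, tested itself as an interaction, passed the threshold. The response was lower by -0.59 on the log2(FPKM + 1) scale in KD cells (SE 0.116, adjusted p = 0.0326, limma), with 9.13 and 9.30 FPKM in control and 4.37 and 5.46 FPKM in KD cells at 24 h, from 0.468 and 0.467 and from 0.268 and 0.275 FPKM untreated. The fold between the means was 19.7 in control and 18.1 in KD cells, and the call was absent with 0.1 added in place of 1 (-0.29, adjusted p = 0.307).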

How the results depend on the processing

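Of 1098 refitted receptor differences, 997 kept their direction and side of the threshold, 62 were no longer past it, 19 came past it and 20 changed sign, none of them called under either setting. Requiring a change of at least 1 (log2) left 1, 4 and 2 receptors called in parental cells (8 h, 24 h, 24 h against 8 h), 4 and 5 in control and 2 and 4 in KD cells (8 and 24 h), 0 between KD and control at each time and 0 in the difference of responses at 24 h. With 0.1 added, 2 were called between untreated KD and control cells and 0 in the 24 h difference of responses. Quantile normalization gave 3 in untreated KD against control cells. Fitting only the groups compared gave 1 between KD and control at 24 h and 1 and 0 for the differences of responses at 8 and 24 h. Without the filter 1 was called in the difference of responses at 8 h, Pdgfra, which the main fit did not test. Leaving out each replicate in turn gave 7 to 7, 8 to 8 and 4 to 5 called receptors in parental cells (8 h, 24 h, 24 h against 8 h), 8 to 8 and 7 to 8 in control, 7 to 8 and 9 to 9 in KD, 1 to 3, 3 to 3 and 1 to 4 between KD and control (0, 8, 24 h), and 0 to 2 and 0 to 3 for the differences of responses. A lone remaining replicate was assumed to vary like the other groups.

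Replicate numbers showed no pairing across the groups as a whole: same-numbered deviations correlated at -0.14 to 0.37, 2 of 15 pairs over 0.1. Whether replicates were shared between the groups of those 2 pairs was not tested. With the replicate block the calls were 8 and 8 in control, 8 and 9 in KD, 1, 4 and 2 between KD and control and 0 and 1 for the differences of responses, as without it. The parental columns carry no replicate numbers.

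Sign changes after quantile normalization were Pdgfrb in parental cells at 8 h (-0.049), Fgfr2 KD against control at 8 h (-0.018), and the response differences of Pdgfrb at 8 h (-0.0066) and Erbb3 at 24 h (-0.022), the latter also with 0.1 added (-0.012). Without 1 replicate, values that changed sign ranged from -0.15 to 0.096 for Fgfr2 and from -0.080 to 0.052 for Erbb2 (24 h against 8 h, parental), from -0.020 to 0.018 for Pdgfrb at 8 h, -0.061 to 0.018 for Erbb3 and -0.040 to 0.25 for Pdgfrb at 24 h (KD against control). In the response differences they ranged from -0.076 to 0.054 for Erbb2 and -0.011 to 0.027 for Pdgfrb at 8 h, and from -0.089 to 0.041 for Erbb2, -0.0044 to 0.074 for Erbb3 and -0.031 to 0.26 for Pdgfrb at 24 h. The causes were not tested.

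Quantile normalization moved the share of higher calls over all genes from 30.2% to 46% and 36.1% to 50% (control, 8 and 24 h), 33.9% to 46% and 39.8% to 50.1% (KD), and 58% to 48% (response difference at 24 h). Receptors with a lamin B1 peak (whole models) numbered 2 untreated within 500 or 2500 bp of the start, 1 with peaks at or above the median score and 1 within 500 bp of CCDS starts, and at 24 h 3, 2 (median score), 3 (equal lists) and 3 (500 bp of CCDS starts). ATAC counts became 2 untreated (median score) and 3 at 24 h (equal lists). Of 875 counts for the other lists, 221 moved by over 1.5 times. Low FPKM limits Fgfr3, Pdgfra and Pdgfrb.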
